A study of Homo sapiens with 24 samples.

Results

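The zinc finger genes of chromosome 19 were examined in Flag ChIP-seq peak lists from MCF-10A–ER-Src cells. They are the protein-coding genes of chromosome 19 whose GENCODE symbol starts with ZNF and a digit, lettered symbols and 3 read-through genes included, and there are 249 of them among 20098 protein-coding genes of chromosomes 1 to 22 and X. MCF-10A is a nontransformed human mammary epithelial line, and ER-Src is v-Src fused to the ligand-binding domain of the estrogen receptor, which 4-hydroxytamoxifen (TAM) activates. All cells compared here carry ER-Src and, from a retroviral vector, S100A8 or S100A9 with a C-terminal Flag tag, so that the tagged protein is introduced and adds to the endogenous one. They were treated for 24 hours with 1 μM TAM or with ethanol (EtOH), cross-linked with protein-protein cross-linkers and formaldehyde, and precipitated with a Flag antibody. The 11 resulting peak lists comprise 5 for S100A8-Flag (2 EtOH and 3 TAM libraries) and 6 for S100A9-Flag (3 EtOH and 3 TAM libraries). The methods call them biological replicates, but neither they nor the labels say whether they are separate cultures, and p values therefore measure the spread between these libraries.

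C2H2 zinc finger proteins read DNA through arrays of short zinc-binding modules. Many of those encoded on chromosome 19 carry an N-terminal KRAB domain, which recruits the corepressor TRIM28 (KAP1) and, through it, the H3K9 methyltransferase SETDB1 and heterochromatin protein 1, and many of them silence transposable elements. The genes lie in clusters that arose by repeated duplication, and a long last exon usually encodes the whole finger array. Chromatin over the gene bodies, and over that last exon in particular, carries H3K9me3 in many human cell types.

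A peak counts here when the authors' MACS2 gave it a q value of at most 1e-07. It was assigned to a promoter when its summit fell within a window around a transcription start site (TSS) that reaches 1500 bp upstream and 250 bp into the gene, and otherwise to the last exon or to the rest of the gene body. The lists hold 1853 to 4609 such peaks per EtOH library and 21518 to 40735 per TAM library, with no read numbers, so that the depth of the libraries is unknown. Since the cells were measured in bulk, fewer cells with a bound site and weaker binding in each cell cannot be told apart. Peaks over the last coding exon of S100A9 were present in 6 of 6 S100A9-Flag libraries and 1 of 5 S100A8-Flag libraries, whereas the last coding exon of S100A8 had a peak in 0 of 5 S100A8-Flag and 0 of 6 S100A9-Flag libraries. The lists contain no RNA, and the cell type can be read only from promoters. Of 8 basal epithelial marker genes 7 had a promoter peak in a TAM library, as did 3 of 4 luminal markers, 1 of 3 fibroblast markers (COL1A1, in 6 of 6 TAM libraries), and 0 of 2 blood cell markers. Since 12193 of all 20098 protein-coding genes had such a peak, these counts say little about the cell type.

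The sequences under the summits are shown so that bound promoters can be set beside promoters without a peak. The first 4 stretches below belong to genes with recurrent promoter peaks. ZNF599 was called in 9 of 11 libraries, ZNF787 in 8, ZNF554 in 7, and ZNF264 in all 6 TAM libraries and no EtOH library. Each is read 5′ to 3′ on the strand of the gene from GRCh37, at most 60 bases to either side of the summit of its best-ranked TAM peak and trimmed where an exon begins. Capitals mark matches of the ETS word CGGAAG, the KLF/SP1 word CCCCGCCC, the NFY word CCAAT, and the THAP11/ZNF143 word ACTACAATT, each on either strand. The stretch of ZNF554 holds none of these words. The printed stretches are examples and no sample of the bound promoters. Among other genes with recurrent promoter peaks, the stretches of ZNF461, ZNF575, and ZNF558 also hold none of these words. Those of ZNF581 and ZNF83 hold only the KLF/SP1 word.
ZNF599 (chr19:35264145-35264265, minus strand): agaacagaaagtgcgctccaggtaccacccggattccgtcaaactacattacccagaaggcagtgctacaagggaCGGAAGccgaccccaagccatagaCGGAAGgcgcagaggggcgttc
ZNF787 (chr19:56632803-56632923, minus strand): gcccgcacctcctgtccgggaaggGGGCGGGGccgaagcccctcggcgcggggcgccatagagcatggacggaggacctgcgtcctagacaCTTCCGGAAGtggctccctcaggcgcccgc
ZNF554 (chr19:2819727-2819847, plus strand): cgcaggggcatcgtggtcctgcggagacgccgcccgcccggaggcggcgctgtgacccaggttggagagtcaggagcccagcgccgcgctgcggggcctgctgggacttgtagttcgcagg
ZNF264 (chr19:57702753-57702867, plus strand): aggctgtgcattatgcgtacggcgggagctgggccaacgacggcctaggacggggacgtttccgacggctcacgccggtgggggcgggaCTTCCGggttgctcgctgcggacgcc
ZNF317, called in 3 of 3 S100A9 TAM libraries and 1 of 3 S100A8 TAM libraries, has several words next to each other.
ZNF317 (chr19:9250934-9251054, plus strand): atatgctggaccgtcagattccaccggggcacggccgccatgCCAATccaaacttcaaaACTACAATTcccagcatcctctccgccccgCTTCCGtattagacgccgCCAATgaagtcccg
For contrast, the next stretches are the 120 bases upstream of the principal start of ZNF91, a repressor of SVA retrotransposons, and of ZNF43. Neither promoter was called in any of the 11 libraries.
ZNF91 (chr19:23578274-23578393, minus strand): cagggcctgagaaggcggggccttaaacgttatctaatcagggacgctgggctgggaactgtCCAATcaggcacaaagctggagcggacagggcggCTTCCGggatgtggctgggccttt
ZNF43 (chr19:22019011-22019130, minus strand): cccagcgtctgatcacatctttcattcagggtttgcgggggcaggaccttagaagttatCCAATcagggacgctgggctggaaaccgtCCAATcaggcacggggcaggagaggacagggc
CCAAT occurs 1 time in the stretch of ZNF91, beside 1 CGGAAG, and 2 times in that of ZNF43.

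Few zinc finger promoters carried a peak in EtOH, and more of them did in TAM. S100A8-Flag was found at 17 and 22 of the 249 promoters in the EtOH libraries and at 88, 69, and 74 in the TAM libraries. S100A9-Flag was found at 14, 12, and 15 promoters in EtOH and at 85, 74, and 104 in TAM. Every TAM library exceeded every EtOH library. For S100A8-Flag the promoter share was 7.83 ± 1.42% (SD, n = 2) in the EtOH libraries. It was 30.9 ± 3.96% (SD, n = 3) in the TAM libraries. For S100A9-Flag the corresponding shares were 5.49 ± 0.614% and 35.2 ± 6.09% (SD, n = 3 each). Averaged over both proteins, the share rose by 26.4 percentage points in TAM (exact two-sided permutation with the protein as stratum, p = 0.01, the smallest that 200 arrangements allow). Within S100A8 the difference was 23.1 points and within S100A9 29.7 points, with exact permutation p values of 0.2 and 0.1 that are the smallest these designs allow. The difference between these changes was 6.63 points (exact permutation, p = 0.14). The TAM lists also hold more peaks in all, and depth and treatment cannot be told apart in this number. When the 1853 peaks with the lowest q value were used in every library, 5, 10, 9, 12, and 8 zinc finger promoters were called in the EtOH libraries and 9, 4, 3, 8, 6, and 2 in the TAM libraries, and the difference became −1.31 points (exact permutation, p = 0.09).

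Per gene, the treatments could not be separated. Of the 249 genes, 145 (58.2%) were called in a larger share of TAM than of EtOH libraries and 4 (1.61%) in a larger share of EtOH libraries, close to the 58.8% and 1.81% of all other protein-coding genes, while 100 were called in none. Fisher's exact test on the calls of each gene, adjusted over all 20098 genes by the Benjamini-Hochberg method, called 0 zinc finger genes against 0.00% of all genes, and 22 zinc finger genes (8.84%) and 2245 of 19849 other genes (11.3%) had an unadjusted p below 0.05. A gene with a peak in 6 of 6 TAM and 0 of 5 EtOH libraries, the most extreme pattern possible, has an unadjusted p of 0.00216 by Fisher's exact test and an adjusted p of 0.076.

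No difference between S100A8-Flag and S100A9-Flag in the share of zinc finger promoters passed the test. The share for S100A9 minus that for S100A8 was −2.34 points in EtOH (exact permutation, p = 0.2, the smallest this design allows, with both S100A8 libraries above all S100A9 libraries) and 4.28 points in TAM (exact permutation, p = 0.5), and 0.971 points over both treatments (exact permutation, p = 0.74). A promoter was called confident when at least 2 replicates of a condition had a peak there. This rule is stricter for S100A8 in EtOH, with 2 libraries in all, than for the other conditions, with 3 each. In TAM, 77 zinc finger genes (30.9%) were confident for S100A8 beside 36.7% of all protein-coding genes, and 91 (36.5%) were confident for S100A9 beside 43.0%. In EtOH the numbers were 6 (2.41%) for S100A8 beside 4.62% and 7 (2.81%) for S100A9 beside 5.69%. The TAM lists of both proteins had 59 zinc finger genes in common, which are 76.6% of the S100A8 list and 64.8% of the S100A9 list. For all other protein-coding genes the corresponding shares were 85.7% and 73.2%. In EtOH, 1 zinc finger gene was in both lists, which is 16.7% of the S100A8 list and 14.3% of the S100A9 list, compared with 40.5% and 32.9% for all other protein-coding genes.

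**Figure D1:**
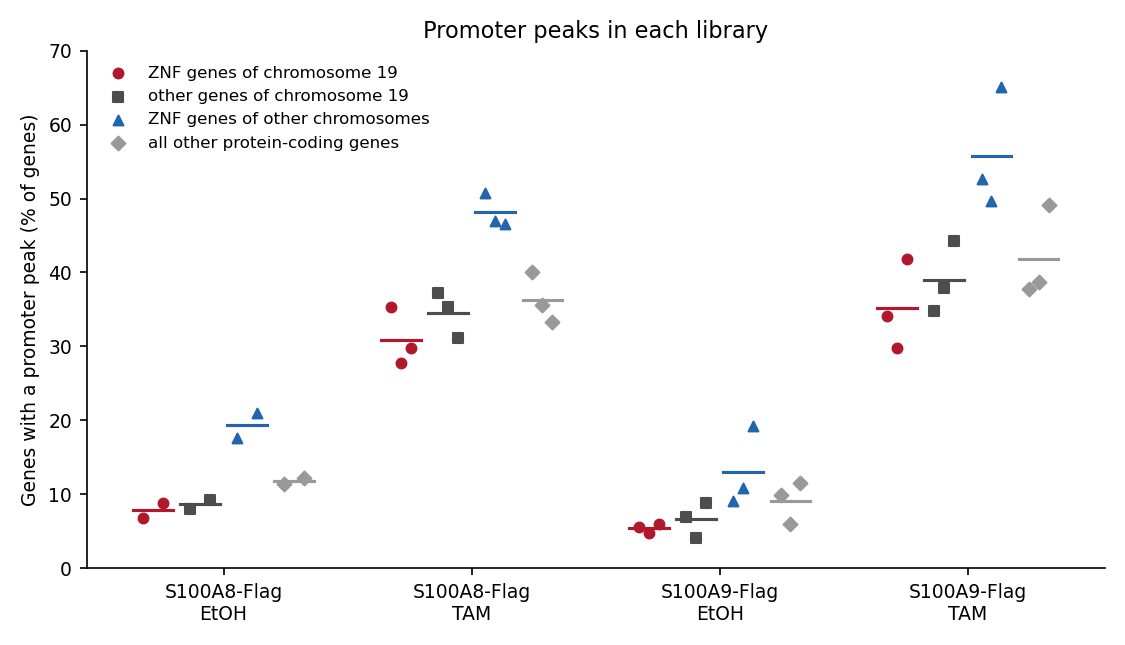
Share of genes with a promoter peak (y axis, % of genes) in each of the 11 libraries, by protein and treatment. Each point is a library and each horizontal line the mean of a condition. The group of all other protein-coding genes includes both other comparison groups. The zinc finger genes of chromosome 19 lie between 4.82% and 8.84% in EtOH and between 27.7% and 41.8% in TAM, below the zinc finger genes of other chromosomes in each library.

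Compared with the rest of the genome in the same libraries, the zinc finger promoters of chromosome 19 were bound less often. The median share in the TAM libraries was 31.9% (27.7 to 41.8%), against 38.2% (33.4 to 49.1%) of all other protein-coding genes, 36.3% (31.2 to 44.3%) of other genes of chromosome 19, and 50.2% (46.6 to 65.0%) of the 266 ZNF genes of other chromosomes. In EtOH the median shares were 6.02%, 11.4%, 8.04%, and 17.7% in the same order. The zinc finger genes of chromosome 19 were lower than all other genes in 11 of 11 libraries, with a mean difference of −4.998 percentage points (exact sign-flip permutation, p = 0.000977, the smallest possible with 11 libraries). They were lower than other genes of chromosome 19 in 10 of 11 libraries, with a mean difference of −2.48 points (exact sign-flip permutation, p = 0.00391), and lower than ZNF genes elsewhere in 11 of 11, with −14.5 points (p = 0.000977 in the same exact test).

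Relative to all other protein-coding genes, the promoter share of the zinc finger genes was higher in TAM at the main threshold. The ratio of their share to that of all other genes was 0.645 ± 0.117 (SD, n = 5) over the EtOH libraries and 0.846 ± 0.0594 (SD, n = 6) over the TAM libraries. On the log2 scale the ratio rose by 0.40 (exact permutation within each protein, p = 0.02). Such a ratio can rise when both shares rise with the number of peaks, so that it does not by itself show a gain. The result depended on the comparator and on the number of peaks. Relative to other genes of chromosome 19 the difference was 0.02 (exact permutation, p = 0.9), and with equal numbers of peaks in every library it was −0.54 (exact permutation, p = 0.23).

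A smaller share of the zinc finger genes than of all genes was called in every TAM library. A peak was present in all 6 TAM libraries at 15 zinc finger genes (6.02%), beside 13.9% of all protein-coding genes and 16.2% of the ZNF genes elsewhere. It was present in 1 to 5 TAM libraries at 134 genes (53.8%), compared with 46.7% of all other protein-coding genes. No library called the remaining 100 (40.2%), beside 38.9% of all protein-coding genes. Among these 100 promoters, 56 had no peak of any q value in any deposited list, 30 had a weak peak in 1 or 2 lists, and 14 in 3 or more. In EtOH, 194 genes (77.9%) were called in no library, compared with 70.9% of all other protein-coding genes, 36 in 1, 14 in 2, 4 in 3, and 1 in 4.

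**Figure D2:**
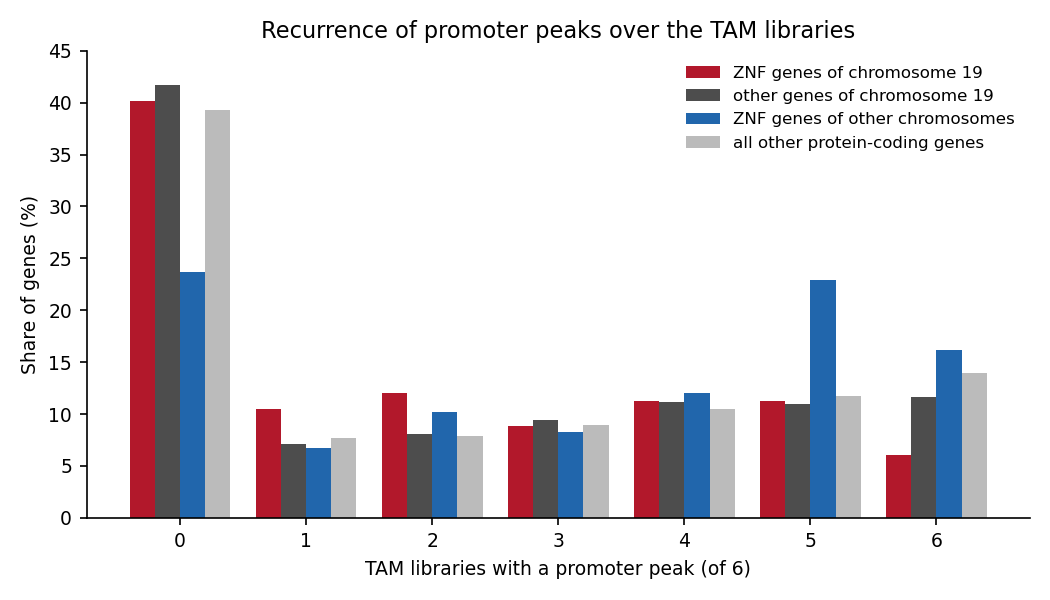
Share of genes (y axis, %) by the number of TAM libraries, from 0 to 6, that called a promoter peak (x axis). Bars give the zinc finger genes of chromosome 19 (n = 249), other genes of chromosome 19 (n = 1231), ZNF genes of other chromosomes (n = 266), and all other protein-coding genes (n = 19849). At 6 libraries the zinc finger genes of chromosome 19 have the lowest bar, 6.02%.

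Where a zinc finger promoter did carry a peak, its rank was not detectably different from that of other promoter peaks. Peaks were ranked by fold enrichment over input among the promoter peaks of the same library and given a percentile from 0 to 100. The median percentile of zinc finger promoter peaks was 50.8 ± 6.52 (SD, n = 6) over the TAM libraries and 56.5 ± 19.9 (SD, n = 5) over the EtOH libraries, where a library had 10 to 22 such peaks. It exceeded that of other promoter peaks by 3.31 points over all libraries (exact sign-flip permutation, p = 0.484). The summits lay close to the TSS. In the TAM libraries their median distance to the nearest TSS was 53 to 74 bp, compared with 72 to 95 bp at other genes, and 70.8 to 80.3% of them lay upstream of it, compared with 73.1 to 76.7%.

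The promoters called in the most libraries belonged to ZNF846 (9 libraries), ZNF599 (9), ZNF581, ZNF461, ZNF562, ZNF576, ZNF787, and ZNF114 (8 each), and ZNF554 and ZNF83 (7 each). ZNF846 encodes a KRAB protein with 11 fingers and lies at chr19:9862669-9903856. The −log10 q of its promoter peak was 10.4 and 12.8 for S100A8 in EtOH, 21.2, 14.02, and 3.48 for S100A8 in TAM, 16.6, 7.89, and 5.75 for S100A9 in EtOH, and 20.6, 9.58, and 16.4 for S100A9 in TAM. Both treatments thus had libraries above 12 and libraries below 7, and the groups overlapped. ZNF599, another KRAB gene at chr19:35248978-35264134, had −log10 q values of 9.21 and 9.15, then 19.4, 27.9, and 8.02 for S100A8 in EtOH and TAM. For S100A9 it had 19.6 in the first EtOH library and no peak in the others, and 12.6, 8.49, and 17.4 in TAM. Its summits fell no more than 71 bp from the nearest TSS, beside the paired CGGAAG words printed above.

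ZNF581 was called through different starts. It has no KRAB pattern, encodes 4 fingers, and shares a promoter window with ZNF580 and CCDC106. The best peak lay between positions 56146290 and 56146377 in 6 libraries, at 56152304 and 56152351 in the third S100A8 TAM and the second S100A9 EtOH library, and between 56154934 and 56154950 in the other 3. A call at this gene is therefore a statement about a group of neighboring starts. Peaks of ZNF114 (chr19:48773338-48790865) fell within 110 bp of a start in each of the 8 libraries that called it, with a −log10 q of 30.9 in the third S100A9 TAM library and of 7.89 to 8.31 in the EtOH libraries that called it.

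Of the 249 genes, 6 were called in all TAM and no EtOH libraries, and by rank ZNF264, ZNF575, ZNF567, ZNF490, and ZNF558 come first among them. The share of all genes with this pattern is not given here, so that the count describes no trait of the zinc finger genes. A peak in all 6 TAM libraries, whatever the EtOH calls, was less frequent at zinc finger genes (6.02%) than over all protein-coding genes (13.9%). ZNF264 (chr19:57702868-57734214) had −log10 q values of 13.4, 14.5, and 10.2 for S100A8 in TAM and 13.6, 27.9, and 24.0 for S100A9 in TAM. The EtOH lists held weaker peaks at the same promoter, with 2.90 and 4.50 for S100A8 and 4.76 and 3.86 for S100A9, and the third S100A9 EtOH library had none. That all TAM values exceed all EtOH values follows from how the gene was chosen. ZNF558 (chr19:8916846-8942990) had 10.2, 8.84, and 7.05 for S100A8 and 19.9, 9.15, and 13.3 for S100A9 in TAM, and a single EtOH list contained a peak, at 4.44. ZNF490 shares its promoter window with ZNF791, which is read from the opposite strand, and no EtOH list had a peak of any q value there. Weak peaks were common at the other recurrent promoters. Among the 43 zinc finger genes called in 5 or 6 TAM libraries, 19 to 31 had a deposited peak of any q value at the promoter in each EtOH library, of which 6 to 14 passed the threshold. These 43 genes were chosen by their TAM calls, and the same count for other genes is not given here. The numbers therefore describe only these promoters.

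The 4 genes called in a larger share of EtOH than of TAM libraries were ZNF497, ZNF837, ZNF430, and ZNF566. ZNF837 (chr19:58878985-58892397) has its summits at the edge of the window. Its promoter summits in EtOH lay 241 and 248 bp downstream of the TSS, and in 5 TAM libraries the summit lay 259 to 291 bp downstream, just past the limit of 250 bp, and was counted in the gene body. ZNF430, at chr19:21203440-21242856, likewise had gene-body summits 274 to 330 bp downstream of the TSS in 3 TAM libraries. ZNF497 and ZNF566 had promoter peaks below the threshold in other TAM libraries, with −log10 q values of 6.34 to 6.92 at ZNF497 and 2.47 to 6.75 at ZNF566. At ZNF497 the summit of the third S100A9 TAM library, with a −log10 q of 15, lay 252 bp downstream of a TSS and was counted in the gene body, while that of the second S100A9 EtOH library lay 248 bp downstream. All 4 genes had an adjusted p of 1 by Fisher's exact test.

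The largest differences between the proteins in TAM were at ZNF45 and ZNF432, called in 3 of 3 S100A9 and 0 of 3 S100A8 libraries, and the first by position of those with 3 against 1 was ZNF317. For ZNF45 the −log10 q was 10.3, 8.08, and 7.94 for S100A9 and 1.93, 2.36, and 4.74 for S100A8. At ZNF432 the values were 16.1, 12.2, and 10.2 for S100A9, and the S100A8 lists held a peak only in the first TAM library, at 5.17, although the promoter of ZNF432 was also called in 1 S100A8 and 1 S100A9 EtOH library. Chosen for this difference, these genes describe its extent and are no test of it. At ZNF274, whose product recruits SETDB1 to zinc finger genes, 2 of 3 S100A8 and 1 of 3 S100A9 TAM libraries had a promoter peak and no EtOH list held a peak of any q value.

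**Figure D3:**
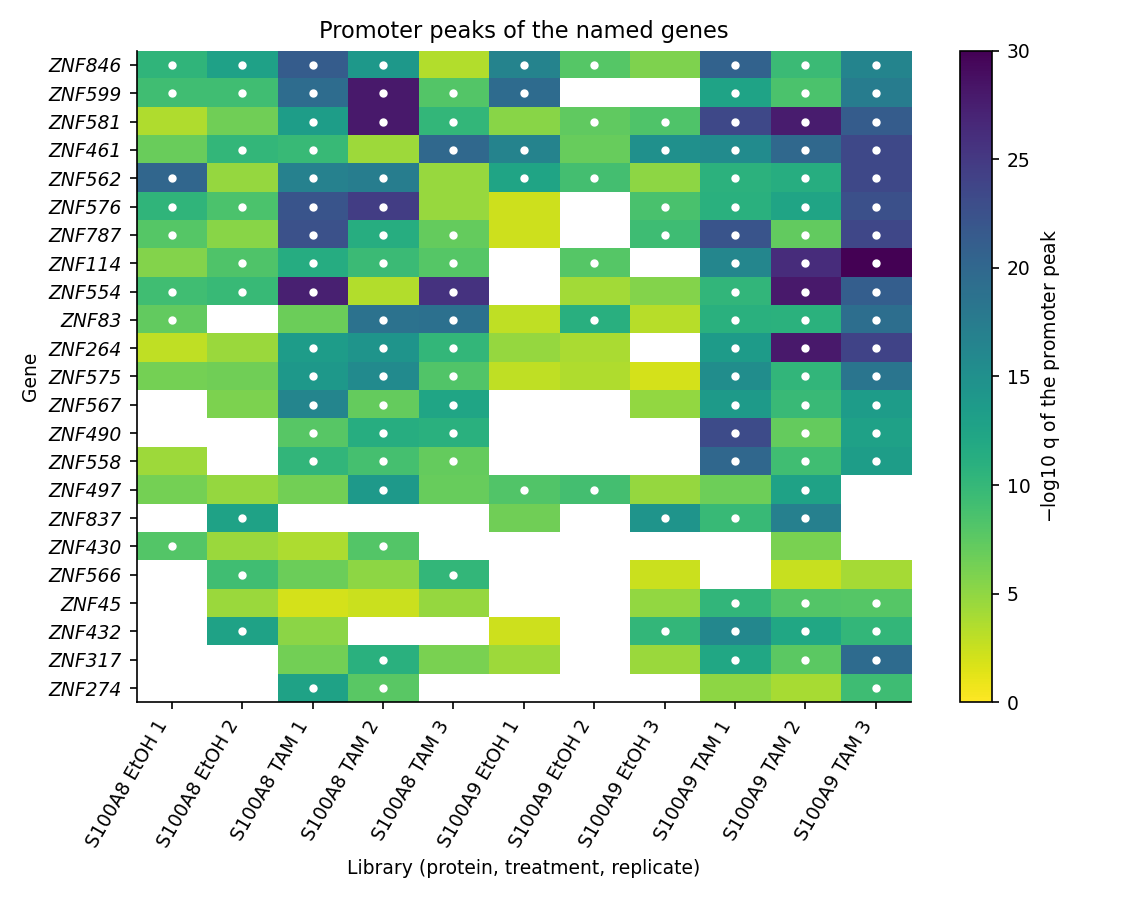
The −log10 q of the best promoter peak (color) of each named gene (rows) in each library (columns). White dots mark peaks with a −log10 q of at least 7, and white cells have no deposited peak at the promoter. ZNF264, ZNF575, ZNF567, ZNF490, and ZNF558 carry dots in all 6 TAM columns and in no EtOH column.

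The promoter share of the zinc finger genes also varied by position. Genes less than 1 Mb from each other were joined, which gave 16 blocks, 9 of them with at least 5 genes. A block of 37 genes from ZNF101 to ZNF254 at chr19:19779605-24312770, which contains ZNF91, ZNF43, ZNF93, and ZNF208, had few promoter peaks. In the EtOH libraries 1, 0, 0, 0, and 1 of its promoters were called, and in the TAM libraries 2, 4, 3, 0, 2, and 2. Outside this block the TAM libraries called 86, 65, 71, 85, 72, and 102 of 212 promoters. Its share was 5.86 ± 3.59% (SD, n = 6) in TAM, and that of the other zinc finger genes 37.8 ± 6.38% (SD, n = 6). It was lower in 11 of 11 libraries. Because the block was singled out after these values were seen, no test is given.

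Within the block, 29 genes were called in no library, and 17 of these had no promoter peak of any q value in any list. The genes called at least once in TAM were ZNF14 in 3 libraries, ZNF101, ZNF431, and ZNF675 in 2 each, and ZNF430, ZNF493, ZNF100, and ZNF724 in 1 each. The other large blocks had mean TAM shares from 25 ± 8.06% (SD, n = 6), for 40 genes from ZNF175 to ZNF331, to 50 ± 16.7% (SD, n = 6), for 5 genes from ZNF302 to ZNF792. The block of 26 genes from ZNF565 to ZNF573 had 47.4 ± 12.8% (SD, n = 6) and that of 59 genes from ZNF628 to ZNF446 41.0 ± 8.47% (SD, n = 6). The spread between the libraries exceeds the distance between most neighbors in this order.

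**Figure D4:**
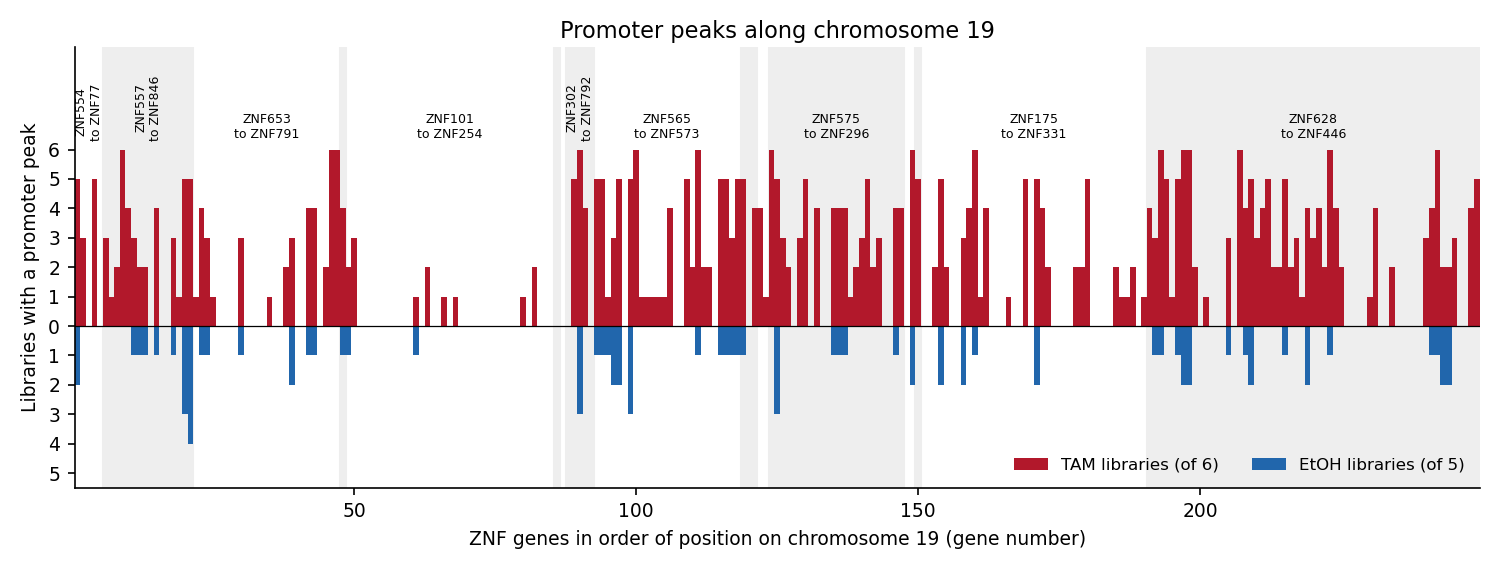
Number of libraries with a promoter peak (y axis) at each of the 249 zinc finger genes in order of position on chromosome 19 (x axis), with TAM libraries (of 6) drawn upward and EtOH libraries (of 5) drawn downward. Shading alternates between blocks, and blocks of at least 5 genes are named by their first and last gene. The block from ZNF101 to ZNF254 is nearly empty.

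The comparison was repeated without this block. The share of the 212 other genes was lower than that of all other protein-coding genes in 8 of 11 libraries, with a mean difference of −1.98 points. Compared with other genes of chromosome 19 it was lower in 5 of 11, and the mean difference was 0.531 points in the other direction. The number of CpG dinucleotides in the 300 bases around the principal start moved with these values, with a median of 10 in the block, 22 at the other zinc finger genes, and 23 over all promoters. Among promoters with 10 to 19 CpG, TAM shares were 8.67 ± 5.32% (SD, n = 6) for 25 genes of the block, 32.4 ± 9.79% for 75 other zinc finger genes, and 36.2 ± 5.21% for 3134 other protein-coding genes. Of the promoters with 0 to 9 CpG, the 7 zinc finger genes outside the block had a mean TAM share of 26.2%, which came from 2 of them. In the block 0 of 11 were called in a TAM library, and the mean share was 9.30% for other protein-coding genes. With 20 to 29 CpG, 97 zinc finger genes outside the block had 39.4 ± 6.76% (SD, n = 6), compared with 54.3 ± 7.18% for other protein-coding genes. With 30 or more, 33 such genes had 48.0 ± 8.00%, compared with 52.5 ± 7.34%. The part of CpG content in the result was not tested. Sequence uniqueness was also counted, and its part in the result was not tested. Of the bases in promoter windows, 92.7% in the block and 93.9% at the other zinc finger genes begin a 50-base word that occurs once in GRCh37.

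The 210 genes whose reading frame has a KRAB pattern, called KRAB genes here, were bound less often than the 39 without it. The pattern is a short run of amino acids, and a gene without a match may still encode a KRAB domain. In TAM the promoter share was 30.8 ± 5.42% (SD, n = 6) with the pattern and 45.3 ± 6.62% (SD, n = 6) without it, and in EtOH 5.52 ± 1.98% and 11.3 ± 3.89% (SD, n = 5). The KRAB genes were lower in 10 of 11 libraries, and outside the block from ZNF101 to ZNF254 they remained lower on average, at 35.5 ± 6.77% compared with 49.1 ± 7.17% (SD, n = 6) in TAM. Compared with all other protein-coding genes, the KRAB genes were lower in 11 of 11 libraries, by −6.65 points on average. The 39 genes without the pattern went the other way, at 3.88 points above them on average and lower in 2 of 11 libraries. Their mean difference from other genes of chromosome 19 was 6.40 points, lower in 1 of 11. The promoters also differed in CpG number, with a median of 19 with the pattern and 24 without it. Outside the block the medians were 21 and 26. The part of CpG content in this difference was not tested. The genes called in no library included 90 with the pattern (90%), and those called in all 6 TAM libraries 10 of 15 (66.7%). The median number of fingers was 12, 12.5, and 10 for genes called in no library, in 1 to 5, and in 6 TAM libraries. Promoters whose window overlaps that of another protein-coding gene, 55 in number, had a TAM share of 45.8 ± 6.34% compared with 29.5 ± 5.53% (SD, n = 6) for the other 194, and a summit in an overlapping window counts for each of its genes.

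Promoters of the zinc finger genes hold the ETS and CCAAT words more often than other promoters do. CGGAAG was present in the 300 bases around the start of 146 of 249 genes (58.6%), compared with 25.2% of all promoters, and CCAAT in 132 (53.0%), compared with 35.9%. The ETS word was about equally frequent in zinc finger promoters called in 5 or 6 TAM libraries (60.5% of 43) and in none (56.0% of 100). Over the other protein-coding genes it was present in 37.8% and 10.97%, respectively. The CCAAT word was present in 27.9% of the zinc finger promoters called in 5 or 6 TAM libraries and in 66.0% of those called in none, and it was in 36 of the 37 promoters of the block from ZNF101 to ZNF254. Outside that block the corresponding shares were 27.9% and 53.5%. Other protein-coding genes had 33.0% and 35.1%. These are counts of letters and do not show that a factor is bound.

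The bodies of zinc finger genes were nearly free of peaks. In the EtOH libraries 2, 0, 1, 0, and 2 of the 249 genes had a gene-body peak outside the promoter and the last exon, and in the TAM libraries 25, 12, 12, 14, 12, and 20. The TAM share of 6.36 ± 2.19% (SD, n = 6) compares with 29.1 ± 4.83% of all other protein-coding genes and 23.6 ± 4.47% of ZNF genes elsewhere (SD, n = 6). The share rose by 5.96 points in TAM (exact permutation within each protein, p = 0.01, the smallest possible), and with equal numbers of peaks in every library the difference was 0.201 points (exact permutation, p = 0.3). At least 2 TAM libraries had a gene-body peak at 24 zinc finger genes (9.64%), beside 39.1% of all protein-coding genes.

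Per length of gene body the difference remained. The zinc finger genes had 2.89 ± 1.01 gene-body peaks per Mb (SD, n = 6) in TAM, compared with 8.37 ± 2.31 for all other protein-coding genes, 19.7 ± 4.61 for other genes of chromosome 19, and 7.85 ± 2.11 for ZNF genes elsewhere. In EtOH the densities were 0.151, 0.927, 2.41, and 0.988 peaks per Mb. The zinc finger genes were lower than all other genes in 11 of 11 libraries, with a mean difference of −3.34 peaks per Mb (exact sign-flip permutation, p = 0.000977), and lower than other genes of chromosome 19, with −10.2 peaks per Mb (p = 0.000977 in the same exact test). Of their bodies, 90.7% consists of positions at which a 50-base word occurs once in the genome, compared with 91.0% for other genes of chromosome 19. Outside the block from ZNF101 to ZNF254 the share of genes with a gene-body peak was lower than that of other genes of chromosome 19 in 11 of 11 libraries. The block had about the same body share as the other zinc finger genes in TAM, 6.76 ± 4.76% compared with 6.29 ± 1.93% (SD, n = 6). This share is not corrected for length, and the median gene length was 36713 bp in the block and 22650.5 bp outside it. Some summits in the block, at ZNF430, ZNF738, and ZNF254, lay just past the 250 bp limit of the promoter window.

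**Figure D5:**
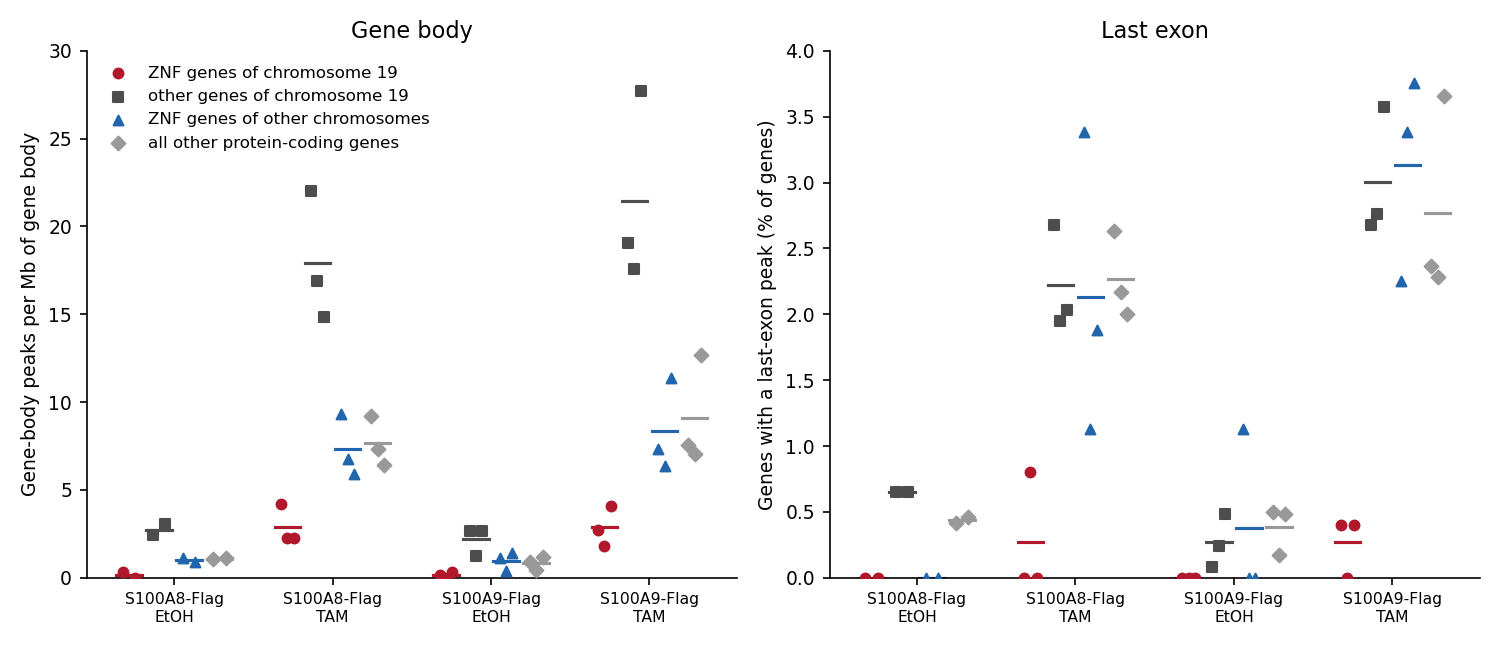
Left, gene-body peaks per Mb of gene body (y axis) in each library. Right, share of genes with a peak in the last exon (y axis, % of genes). Points are libraries and horizontal lines the means of a condition. In TAM the zinc finger genes of chromosome 19 lie between 1.81 and 4.22 peaks per Mb, below each of the other groups.

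The last exon, which encodes the fingers, had 4 peaks in all, each in 1 TAM library, at ZNF57, ZNF460, ZNF574, and ZNF575. These 4 genes (1.61%) compare with 6.61% of all protein-coding genes with a last-exon peak in any library, although the last exons of zinc finger genes are long, with a median of 3287 bp outside promoters compared with 707 bp for other genes of chromosome 19. The share of genes was 0.268 ± 0.328% (SD, n = 6) in TAM and 0% in each of 5 EtOH libraries, and this difference did not pass the test (exact permutation, p = 0.24). Relative to all other genes the share was lower in 11 of 11 libraries, with a mean difference of −1.41 points (exact sign-flip permutation, p = 0.000977). In the last exons, 93.3% of positions begin a unique 50-base word, compared with 95.3% for other genes of chromosome 19.

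Over all libraries 120 gene-body peaks were found, 115 of them in TAM, at 48 genes. Of the summits, 46 lay within 1 kb downstream of a TSS and 17 in the promoter window of another protein-coding gene. The genes with such peaks in the most libraries were ZNF254, ZNF575, and ZNF787 with 6 each and ZNF653, ZNF83, and ZNF837 (described above) with 5 each. The summits at ZNF575 (chr19:44029649-44040282) recurred at the same place, 567 to 638 bp downstream of a TSS in all 6 TAM libraries, with −log10 q values of 25.2, 7.70, and 12.5 for S100A8 and 17.4, 14.9, and 18.5 for S100A9, and in no EtOH library. At ZNF787 (chr19:56598732-56632664) the summits fell between 56616661 and 56616690 in 5 libraries, 1 of them in EtOH. ZNF254 (chr19:24216207-24312770) differed in this respect. Its promoter was called in no library, and its gene-body summits were spread over several places, with 3 lying 282 to 341 bp downstream of a TSS and 4 between 24256780 and 24256820. At ZNF653 (chr19:11594242-11616654), which has no KRAB pattern, the summits of the 3 S100A9 TAM libraries lay between 11607347 and 11607398. At ZNF586 the summits of 4 TAM libraries lay in the promoter windows of ZNF587B or ZNF552.

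Gene-body peaks were more frequent at genes without the KRAB pattern. Their TAM body share was 17.9 ± 4.29% (SD, n = 6), compared with 4.21 ± 1.98% for the KRAB genes, and the KRAB genes were lower in 7 of 11 libraries and equal in 2. Of the 8 genes with gene-body peaks in 4 or more libraries, ZNF254 and ZNF586 have the pattern and ZNF507, ZNF575, ZNF653, ZNF787, ZNF83, and ZNF837 do not. This list was drawn up after the values were seen. Summits just past the promoter window count here as gene-body peaks, as at ZNF837 without the pattern and ZNF430 with it. Their part in the difference was not tested.

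Genes whose products act in silencing with KRAB zinc finger proteins were also listed. Of 24 genes of the silencing machinery, 21 had a promoter peak in at least 1 TAM library, 11 in 5 or 6, and 13 in an EtOH library. Over all 20098 protein-coding genes the corresponding numbers were 12193, 5145, and 5828. Between treatments 0 of the silencing genes passed Fisher's exact test with Benjamini-Hochberg adjustment, which no protein-coding gene passed. The median number of TAM libraries was 4, compared with 2 over all protein-coding genes and 1 over the zinc finger genes. SETDB1 was called in 6 of 6 TAM and 3 of 5 EtOH libraries, and DAXX, a chaperone of histone H3.3, in 6 of 6 and 0 of 5. TRIM28, the corepressor itself, lies on chromosome 19 at chr19:59055431-59062089 and was called in 2 of 3 S100A8 and 1 of 3 S100A9 TAM libraries and in no EtOH library. MPHOSPH8, UHRF1, and MTA1 had no promoter peak in any library. No list was tested as a set.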

How the data were processed

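The authors mapped the reads to hg19 (GRCh37) by Bowtie2, used only those that mapped to a single place, and ran MACS2 on every library with the input chromatin of that sample as background. Their further requirement of raw reads at a peak was not applied, since the lists hold none. Versions are not given in the sources used here. In the deposited lists, fold enrichment is the ratio of signal over input at the summit, −log10 q is the authors' MACS2 value, and the summit is an offset from the peak start. The deposited lists reach q = 0.05. Pol II and input samples were not analysed here.

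Genes and TSSs were taken from GENCODE 44 lifted to GRCh37. Promoter windows include every TSS of protein-coding transcripts. A gene counts as called when a summit with q ≤ 1e-07 lies in the region, and overlapping windows share summits. Libraries were compared by exact permutation, two-sided by doubling the smaller tail, and gene groups within libraries by exact sign flips. Calls per gene were compared by Fisher's exact test with Benjamini-Hochberg adjustment over all genes. The scripts (Python 3.11.15, numpy 2.4.6, scipy 1.17.1) were tested on simulated data. Named genes were, by rule, those called in the most libraries, only in TAM, more in EtOH, with the most last-exon (at least 2 libraries, which no gene reached) or gene-body peaks, and with the largest difference between proteins, together with ZNF274 and the silencing genes. The words searched were CGGAAG (ETS), CCCCGCCC (KLF/SP1), TGACGTCA (CREB), TGANTCA (AP-1), ACTACAATT (THAP11/ZNF143), TCGCGAGA (ZBTB33), GCATGCGC (NRF1), AANATGGCG (YY1), and CCAAT (NFY), on both strands without mismatch, and none contains another. KRAB patterns and fingers were counted in the annotated reading frame of the principal transcript, which is incomplete for 1 gene (ZNF274).

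The main tests do not pair the samples by replicate number, and the labels do not say whether libraries of the same number belong together. Deviations of promoter calls from the condition mean correlated between −0.0166 and 0.0191 over 5 same-numbered EtOH and TAM pairs. These values cannot show whether such libraries were processed together. The genes, lists, and tests were chosen with earlier results of these data known.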

Additional observations from a re-analysis of the deposited data

How the results depend on the processing

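Relative to all other protein-coding genes, the zinc finger genes kept a lower promoter share and gene-body density in every alternative that was tested. Each of these differences passed the test. They ran from −14.5 to −2.30 points (other comparators included) and from −7.56 to −0.392 peaks per Mb. Without any single library they ran from −5.38 to −4.60 points and from −3.63 to −2.82 peaks per Mb. The promoter result depended on the block from ZNF101 to ZNF254, for which no test is given. Without the block the mean promoter difference was −1.98 points. Against other genes of chromosome 19 it was 0.531 points, in the other direction. Comparisons of treatments depended on the number of peaks. With the 1853 top peaks of every library the promoter difference was −1.31 points (exact p = 0.09), the log2 ratio −0.54 (exact p = 0.23), and the gene-body difference 0.201 points (exact p = 0.3). With every deposited peak, S100A9 minus S100A8 was −1.10 points (exact p = 0.94), the last-exon difference 2.41 points (exact p = 0.03), and the fold percentile difference −1.83 (exact p = 0.0684). With q ≤ 1e-10 the log2 ratio was 0.42 (exact p = 0.1), and against other genes of chromosome 19 at the usual threshold it was 0.0232 (exact p = 0.9). The causes were not tested. With the replicate block, which allows no exact p below 0.0625, the differences were 27.3 points at promoters, 6.27 points in gene bodies, and 0.39 for the log2 ratio (exact p = 0.125), while S100A9 minus S100A8 was 1.53 points and the last-exon difference 0.321 points. Without single libraries the treatment difference at promoters ran from 24.8 to 27.8 points, the log2 ratio from 0.33 to 0.49, the gene-body difference from 5.09 to 6.39, and the last-exon difference from 0.134 to 0.335. S100A9 minus S100A8 ran from −0.669 to 2.34 points, with the lowest value without the third S100A9 TAM library, and the percentile difference from 0.107 to 5.72. No alternative gave a called gene. In the main run even a gene with a peak in all TAM and no EtOH libraries had an adjusted p of 0.076 by Fisher's exact test. No gene could be called there, and the absence of calls says nothing about single genes. Read numbers are unknown, so that depth and binding cannot be told apart, and calls at neighboring genes with overlapping windows are not independent.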
